A study of Mus musculus with 6 samples.

Results

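The 10 genes described here encode transcription factors, set on opposite sides of the step by which a B cell becomes a plasma cell. Prdm1 and Xbp1 act on the plasma cell side. Pax5, Bach2, Bcl6, Ebf1, Foxo1, Ikzf1, Ikzf3 and Spib were grouped as B cell identity factors, a grouping that was not tested. The 10 genes were taken by name from the 41669 gene symbols of the table, and all 10 were among the 12172 genes that passed the low-count filter. RNA had been sequenced from B cells of the spleens of 3 female and 3 male mice of the NZB/W F1 hybrid, which develops a lupus-like disease, all in its late stage. In both sexes the cells had been isolated by positive selection on a column and cultured for 24 h with CpG, DNA that activates B cells through Toll-like receptor 9, so no unstimulated or disease-free sample enters the comparison. Estimated counts summed to 24089561 to 35659883 per library, and levels are given as CPM, the count scaled to a common library total. With a floor of 3 counts, the lowest level distinguishable from 0 in 1 library was 0.0841 to 0.125 CPM, and this floor covers counting error only.

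A naive or activated B cell is held in its state by Pax5, Ebf1 and their partners, which switch on B cell genes and hold genes of other fates silent. Bach2 and Bcl6 repress Prdm1, and Blimp-1, the protein that Prdm1 encodes, in turn represses Pax5 and Bcl6, so the programmes oppose each other. Xbp1 builds the secretory apparatus of the plasma cell, and its messenger yields the active protein only after splicing by IRE1, a form that counts per gene cannot separate.

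The windows of 250 bases before the RefSeq start of the plasma cell factors (GRCm38.p6) are printed because their core letters can be set beside the identity factors that bind such letters. Both are written 5′ to 3′ on the strand of the gene. Capitals mark GTAAACA (the FOXO core), GAGGAA (the core bound by Spi-B and its relatives), TGGGAA (the Ikaros core) and TGCTGA (one side of the element that Bach2 binds with small Maf proteins), each searched on both strands, so that TGGGAA on the opposite strand reads TTCCCA. The window of Prdm1 lies at chr10:44458749-44458998 on the minus strand and that of Xbp1 at chr11:5520391-5520640 on the plus strand. The GENCODE span of Prdm1 reaches further upstream than this RefSeq start, so its window lies inside the annotated gene.
Prdm1: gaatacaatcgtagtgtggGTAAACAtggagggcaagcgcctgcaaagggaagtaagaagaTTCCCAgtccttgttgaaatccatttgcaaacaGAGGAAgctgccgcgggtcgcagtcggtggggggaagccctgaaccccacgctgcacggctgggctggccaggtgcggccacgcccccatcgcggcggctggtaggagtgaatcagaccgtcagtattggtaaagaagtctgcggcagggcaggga
Xbp1: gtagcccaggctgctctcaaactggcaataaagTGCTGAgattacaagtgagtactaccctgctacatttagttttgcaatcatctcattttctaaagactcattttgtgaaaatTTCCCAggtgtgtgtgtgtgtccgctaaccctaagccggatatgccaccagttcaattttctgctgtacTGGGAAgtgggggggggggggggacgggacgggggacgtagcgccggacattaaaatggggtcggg
The Prdm1 window held GTAAACA on the plus strand of the gene with its first base 231 bases before the start, TGGGAA on the opposite strand at 189 bases and GAGGAA at 156 bases. The Xbp1 window held TGCTGA at 217 bases and TGGGAA at 135 bases, on the opposite strand, and at 66 bases. Of 32851 RefSeq windows of the same length, 3.17% held GTAAACA, 23.3% held GAGGAA, 21.6% held TGGGAA and 16.1% held TGCTGA. The cores TGAGTCA (AP-1), ACGTGG (XBP1) and TCCCNNGGGA (EBF), held by 4.46%, 6.91% and 0.779% of windows, were also searched, and neither printed window held one. No marked match overlapped another. Such letters describe a window and do not show that a factor binds there.

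Prdm1 had a higher level in every female library than in any male library, while Xbp1 and the 8 identity factors overlapped between the sexes. None of the 10 passed a false discovery rate of 0.05 in the main test, edgeR's quasi-likelihood test over all 12172 genes, in which 7 genes (0.0575%) passed. At an unadjusted p under 0.05 in edgeR, which 352 genes (2.89%) had, there was 1 member, Prdm1, and limma-voom without sample weights called 0 of the 10 and 9 of all genes (0.0739%). Fewer cells of a type and less RNA per cell cannot be told apart in such bulk libraries. Every fold change below is female over male on the log2 scale, from edgeR with TMM scaling, unless another scale is named.

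Coordinates below are those of the whole protein-coding gene in GRCm38. Prdm1 (chr10:44437177-44528501) had 22.1, 61.5 and 22.9 CPM in female replicates 1 to 3, against 11.7, 12.8 and 12.9 CPM in male replicates 1 to 3. The lowest female lay above the highest male, the males lay close together, and female replicate 2 stood well above the other two females. These levels rested on 533, 1808 and 817 counts in females and 369, 352 and 429 counts in males, so counting error is small beside the spread between the females. The means were 35.5 ± 22.5 CPM in females and 12.5 ± 0.674 CPM in males (SD, n = 3 each). The log2 fold change was 1.63 ± 0.39 (SE), a 3.10-fold difference with a 95% interval of 1.64 to 5.85, at an adjusted p of 0.999 (unadjusted p = 0.0036, edgeR). Of all genes tested, 2.69% had every female library above every male library on the CPM scale, and Prdm1 was the 1 member among them; 7.55% had every female library below every male library, and no member was among those.

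The call for Prdm1 depended on the test. DESeq2 gave a log2 fold change of 1.65 at an adjusted p of 0.0194, where it called 35 genes (0.288%), and Prdm1 was the 1 member called. Limma-voom with sample quality weights gave 2.18 at an adjusted p of 0.0179, where it called 229 genes (1.88%), with a weight of 4.00 on female replicate 2 and 0.201 on female replicate 3. Without female replicate 2 the edgeR log2 fold change was 1.05. In DESeq2, a setting added after seeing the data, it was then 1.07 at an adjusted p of 0.0734, with 24 genes called. DESeq2 kept the call without female replicate 1 (adjusted p = 1.27e-05) or female replicate 3 (0.00512). Its calls over all genes then rose to 195 and 60. It lost the Prdm1 call without male replicate 1, 2 or 3 (0.372, 0.247 and 0.258), with 22, 25 and 25 genes called.

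**Figure D1:**
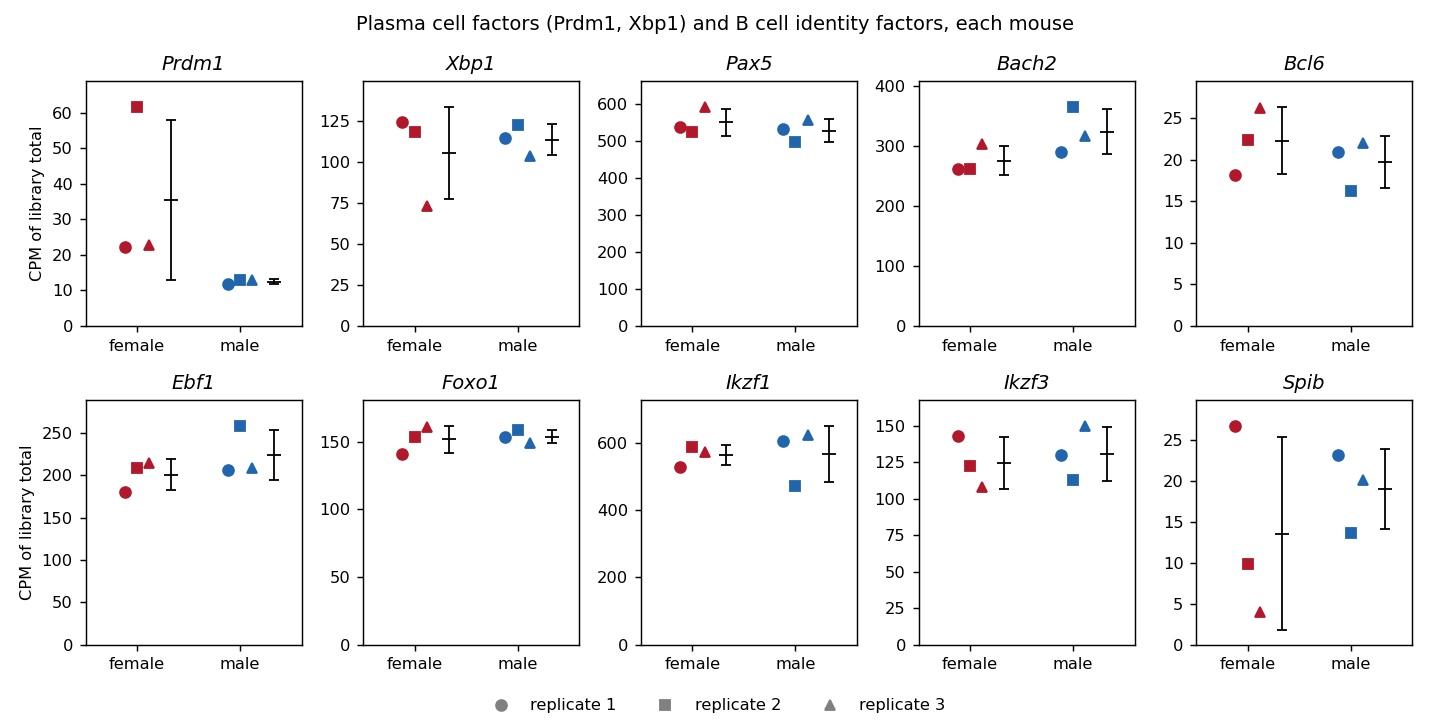
Level of each of the 10 factors in each library, in CPM of the library total on an axis from 0, with females left of males; symbols mark replicates 1 to 3 and the black bar gives mean ± SD over 3 libraries. The 3 female Prdm1 points, from 22.1 to 61.5 CPM, lie above the male points of 11.7 to 12.9 CPM, and in the other 9 panels the sexes overlap.

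Xbp1 (chr11:5520659-5525893), which drives the genes of the secretory pathway, had 124, 118 and 72.9 CPM in female replicates 1 to 3 and 115, 122 and 104 CPM in male replicates 1 to 3. Female replicate 3 was the lowest of the 6 and female replicate 1 the highest, so the males lay inside the female range. Its log2 fold change was -0.00 with a 95% interval of -0.38 to 0.38 (adjusted p = 1.00, edgeR), which leaves out a difference of the size fitted for Prdm1. Its sign changed with the scaling: it was 0.02 with RLE size factors and 0.22 once a trend of levels with transcript length and GC was taken out. The plasma cell factors therefore did not share a pattern over the 6 mice, with a Pearson r of -0.01 between their log2 levels, given as a description.

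Pax5 (chr4:44524757-44710487), the factor that commits cells to the B lineage, had 537, 524 and 591 CPM in female replicates 1 to 3, against 532, 497 and 557 CPM in male replicates 1 to 3. The highest and lowest values were 1.19-fold apart, and female replicate 2, with the highest Prdm1, had the lowest Pax5 of the females but more than male replicate 2. Its log2 fold change was 0.22 with a 95% interval of -0.20 to 0.63 (adjusted p = 0.999, edgeR).

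Bach2 (chr4:32238804-32586108), a repressor of Prdm1, had 262, 262 and 303 CPM in female replicates 1 to 3 and 291, 365 and 318 CPM in male replicates 1 to 3. The first 2 female libraries lay below all males and the third lay among them, so the sexes overlapped. The log2 fold change was -0.08 with a 95% interval of -0.53 to 0.38 (adjusted p = 0.999, edgeR), and -0.24 with library totals only. Bcl6 (chr16:23965052-23988852), the repressor that directs the germinal centre programme, had 18.2, 22.4 and 26.3 CPM in female replicates 1 to 3, against 20.9, 16.2 and 22.1 CPM in male replicates 1 to 3. Both the highest 2 values and the second lowest were from females, and the log2 fold change was 0.35 with a 95% interval of -0.28 to 0.98 (adjusted p = 0.999, edgeR).

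Ebf1 (chr11:44617317-45008091), a pioneer factor of the B lineage that acts with Pax5, had 180, 208 and 214 CPM in female replicates 1 to 3 and 207, 259 and 208 CPM in male replicates 1 to 3. Its lowest value was female and its highest male, with the rest close together, and the log2 fold change was -0.00 with a 95% interval of -0.46 to 0.45. Foxo1 (chr3:52268336-52353221), which drives genes of B cell development and homing, was the most even of the 10 on the CPM scale, with 141, 154 and 160 CPM in female replicates 1 to 3 and 154, 158 and 149 CPM in male replicates 1 to 3. Its coefficient of variation over the 6 libraries was 4.66%, and its log2 fold change was 0.14 with a 95% interval of -0.26 to 0.54. For both genes the adjusted p rounded to 1.00 or 0.999 in edgeR, and the sign of the Foxo1 value turned to -0.02 with library totals only.

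Of the Ikaros family, Ikzf1 (chr11:11685003-11772926), which encodes Ikaros, had 529, 587 and 573 CPM in female replicates 1 to 3 and 606, 470 and 623 CPM in male replicates 1 to 3. Male libraries held its lowest and its 2 highest values, and the log2 fold change was 0.14 with a 95% interval of -0.29 to 0.58. Ikzf3 (chr11:98464902-98546031), which encodes Aiolos, had 143, 122 and 108 CPM in female replicates 1 to 3 and 130, 113 and 150 CPM in male replicates 1 to 3. Its sexes interleaved, and the log2 fold change was 0.05 with a 95% interval of -0.30 to 0.41. With library totals only, these values were -0.01 for Ikzf1 and -0.07 for Ikzf3.

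Spib (chr7:44525993-44532071), an ETS family factor that works at B cell receptor genes, had 26.7, 9.85 and 4.00 CPM in female replicates 1 to 3, against 23.2, 13.7 and 20.1 CPM in male replicates 1 to 3. The females held both its highest value and its 2 lowest, with 143 counts in female replicate 3, so the groups overlapped. The log2 fold change was -0.45 with a 95% interval of -1.71 to 0.81 (adjusted p = 0.999, edgeR), the widest interval of the 10. It was -1.29 without female replicate 1 and -0.07 without female replicate 3.

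**Figure D2:**
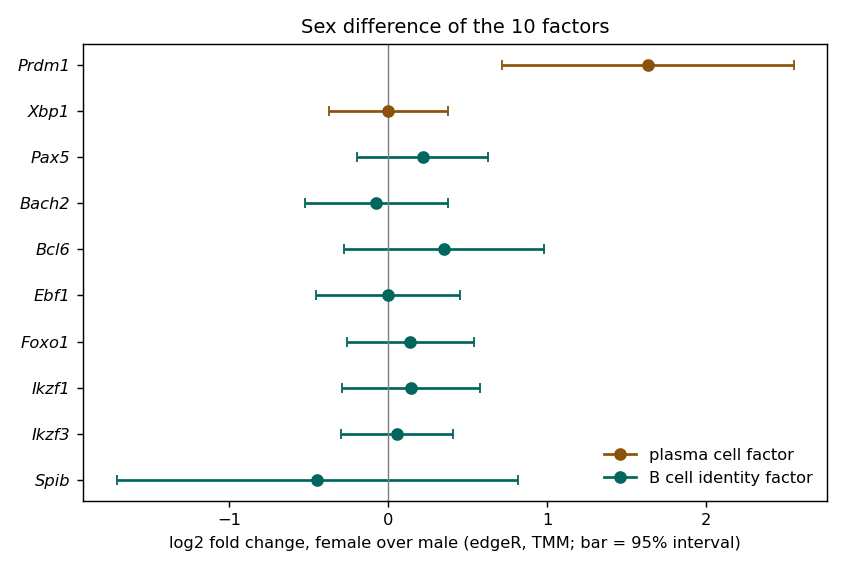
Log2 fold change of each factor, female over male, from edgeR with TMM scaling; points are estimates and bars their 95% intervals. The interval of Prdm1, 0.72 to 2.55, lies above 0, and those of the other 9 factors include 0.

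Levels were set against each other per kilobase of the longest annotated transcript, over the 6 libraries. Ikzf1 was the highest with a mean of 109 CPM per kb, followed by Pax5 with 67.4 and Xbp1 with 51.4 CPM per kb. Ebf1 (35.6), Bach2 (33.8), Ikzf3 (27.7) and Foxo1 (17.6 CPM per kb) came next, and Spib (5.83), Bcl6 (5.34) and Prdm1 (4.54 CPM per kb) were the lowest. The ranges of neighbours in this order overlapped for Xbp1 and Ebf1, Ebf1 and Bach2, Bach2 and Ikzf3, Spib and Bcl6, and Bcl6 and Prdm1. They did not overlap for Ikzf1 and Pax5, Pax5 and Xbp1, Ikzf3 and Foxo1, or Foxo1 and Spib. The order of the lowest 3 differed between the sexes, with means of 6.72 for Prdm1, 5.67 for Bcl6 and 4.85 CPM per kb for Spib in females, against 2.36 for Prdm1, 5.02 for Bcl6 and 6.81 CPM per kb for Spib in males. The sources do not say whether the estimated counts had already been scaled by transcript length, and levels divided by length would then differ from true levels.

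The programmes were then compared mouse by mouse by the ratio of counts within 1 library, which needs no scaling between libraries. Prdm1 counts were 4.12%, 11.7% and 3.87% of Pax5 counts in female replicates 1 to 3, against 2.20%, 2.59% and 2.32% in male replicates 1 to 3. All 3 females lay above all males, and Prdm1 remained far below Pax5 in every mouse. On the log2 scale the ratio was -4.13 ± 0.90 in females and -5.40 ± 0.12 in males (SD, n = 3 each), a difference of 1.28 at a two-sided exact permutation p of 0.1, the smallest that 3 against 3 allows. Without female replicate 2 the difference was 0.76.

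Against the repressors of Prdm1 the females were again higher. Prdm1 counts were 8.44%, 23.5% and 7.55% of Bach2 counts in female replicates 1 to 3, against 4.02%, 3.52% and 4.06% in male replicates 1 to 3. They were 121%, 275% and 87.1% of Bcl6 counts in females, against 56.0%, 79.2% and 58.5% in males, so Prdm1 counts passed those of Bcl6 in 2 libraries, both female. Counts of different genes also reflect transcript length, so these percentages are not ratios of levels.

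Over all 8 identity factors, the log2 ratio of Prdm1 was higher in females by 1.16 to 2.20, and the sexes did not overlap for 7 of the 8. The exception was Spib, where female replicate 1 lay below male replicate 2. Prdm1 alone already separated the sexes, at 22.1 to 61.5 CPM in females against 11.7 to 12.9 CPM in males. Between their highest and lowest libraries, the other 7 identity factors differed only 1.14-fold to 1.62-fold. Non-overlap for those 7 was therefore fixed by the Prdm1 levels and adds nothing about the identity factors. The exact permutation p was 0.1 to 0.2, and 0.229 at the lowest after Benjamini-Hochberg adjustment over 16 ratios. No ratio passed, but none could have, since 0.1 is the smallest p that this test allows with so few mice. These 8 ratios share the Prdm1 counts and are not independent. For Xbp1 the differences ran from -0.32 to 0.72, 3 of 8 were higher in females, all 8 overlapped, and the exact permutation p was 0.4 to 1.

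**Figure D3:**
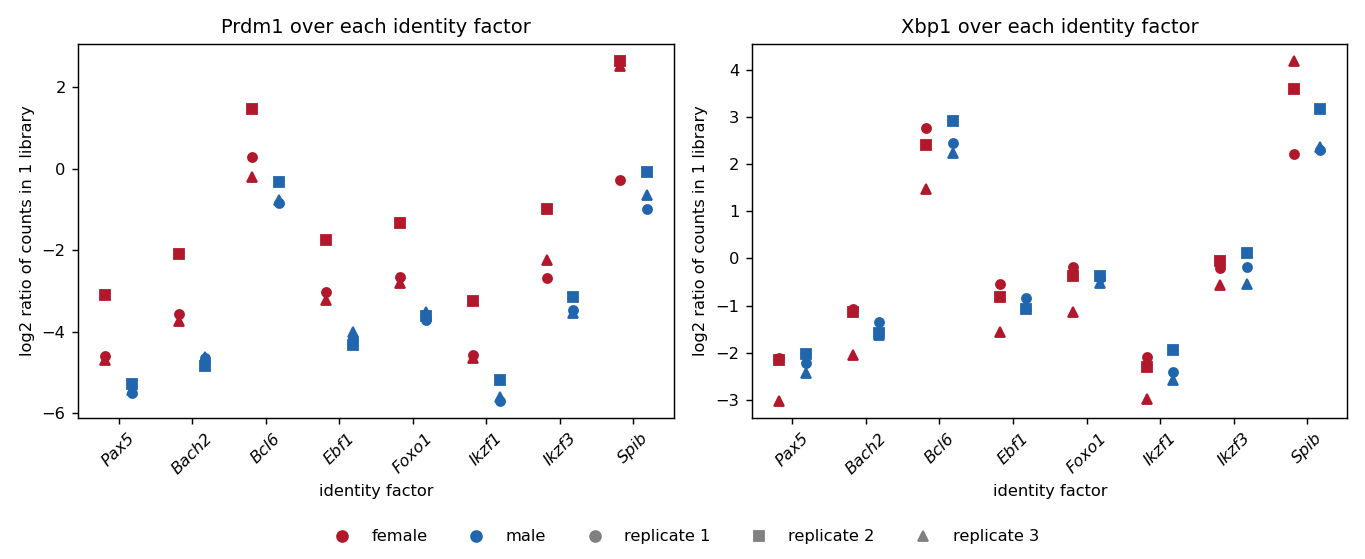
Log2 ratio of counts of Prdm1 (left) and Xbp1 (right) over each identity factor within each library, with females left of males in each pair. For Prdm1 the female points lie above the male points for 7 of 8 factors, with female replicate 2 at the top in every one, and for Xbp1 the sexes overlap for all 8.

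Averaged on the log2 CPM scale, the plasma cell side minus the identity side was -1.40, -0.58 and -1.54 in female replicates 1 to 3 and -1.98, -1.72 and -2.02 in male replicates 1 to 3. Every female lay above every male, and in all 6 mice the identity side was the higher one on this scale. These means are not corrected for transcript length, so they do not settle which side had the higher level in a mouse. The mean was -1.17 ± 0.52 in females and -1.91 ± 0.16 in males (SD, n = 3 each), a difference of 0.73. The difference was 1.47 with Prdm1 alone on the plasma cell side and -0.01 with Xbp1 alone, and 0.44 without female replicate 2. The identity side itself averaged 7.0 ± 0.11 in females and 7.14 ± 0.09 in males. How the difference divides between the sides depended on the scaling and on Spib. With library totals, female minus male was 0.59 for the plasma cell side and -0.14 for the identity side. In settings added after seeing the data, the identity side without Spib had -0.04, and with TMM scaling the plasma cell side had 0.73 and the identity side -0.00.

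Across the 6 mice, the log2 CPM of a plasma cell factor and an identity factor had a negative Pearson r in 11 of 16 pairs, 5 of 8 for Prdm1 and 6 of 8 for Xbp1. Prdm1 was furthest below 0 with Bach2 (r = -0.66, permutation p = 0.163, adjusted p = 0.65; Spearman rho = -0.54, permutation p = 0.297, adjusted p = 0.679), and the r was -0.78 without the 2 libraries farthest from the Prdm1 median. With TMM scaling the r with Bach2 was -0.21, and Prdm1 was then furthest below 0 with Spib (r = -0.55). Xbp1 was furthest below 0 with Pax5 (r = -0.87, permutation p = 0.0153, adjusted p = 0.244; rho = -0.66, permutation p = 0.175, adjusted p = 0.679), and the r was -0.23 over the 4 libraries without female replicate 3 and male replicate 3, so it did not hold without them, and -0.70 without female replicate 3 alone. The r of Xbp1 with Bcl6 was -0.80 (permutation p = 0.0361, adjusted p = 0.289; rho = -0.77, permutation p = 0.103, adjusted p = 0.679) and -0.73 without the same 2 libraries. In the opposite direction, the r of Xbp1 was 0.79 with Spib (permutation p = 0.0875, adjusted p = 0.467) and 0.44 with Ikzf3. Without the same 2 libraries the r with Spib was 0.11. No pair passed after adjustment over the 16. With TMM scaling 2 of 8 were negative for Prdm1 and 7 of 8 for Xbp1, so 3 Prdm1 pairs turned in sign with the scaling, and the points share the library total. Since the Prdm1 levels of the sexes do not overlap, its r values also carry the difference between the sexes, and 3 mice a sex are too few for an r within one.

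Prdm1 and Spib varied most of the 10 over the mice. The SD of log2 CPM over the 6 libraries, with 0.5 CPM added, was larger for Prdm1 than for 95.9% of the 7452 tested genes whose mean reached 5 CPM, and for Spib than for 97.1%. Foxo1 and Pax5 were at the other end on this scale, with an SD larger than that of 1.57% and 3.80% of these genes. Female replicate 3, the library with the highest total, had a TMM factor of 0.816 against 0.993 to 1.07 in the other 5. Its ribosomal protein genes took 0.687% of counts, against 1.33% and 1.70% in the other females and 1.48% to 1.71% in males. A trend of levels with transcript length and GC content, fitted in each library, came to -1.02 log2 units for Spib in that library, and its removal moved the members unequally. The deviation of Spib in female replicate 3 from its mean over 6 libraries was -1.78 log2 units before and -0.76 after, and the SD over the libraries was 1.02 before and 0.52 after. Spib transcripts have a GC content of 54.9%, against a median of 48.1% over tested genes. The SD of Prdm1 was 0.90 before and 0.94 after, and its deviation in female replicate 2 was 1.63 before and 1.65 after. The SD grew to 0.30 for Pax5, against 0.09 before, to 0.18 for Foxo1, against 0.07 before, and to 0.51 for Bcl6, against 0.24 before. With the trend removed, Ikzf3 and Ebf1 varied least of the 10, with SDs of 0.13 and 0.14.

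**Figure D4:**
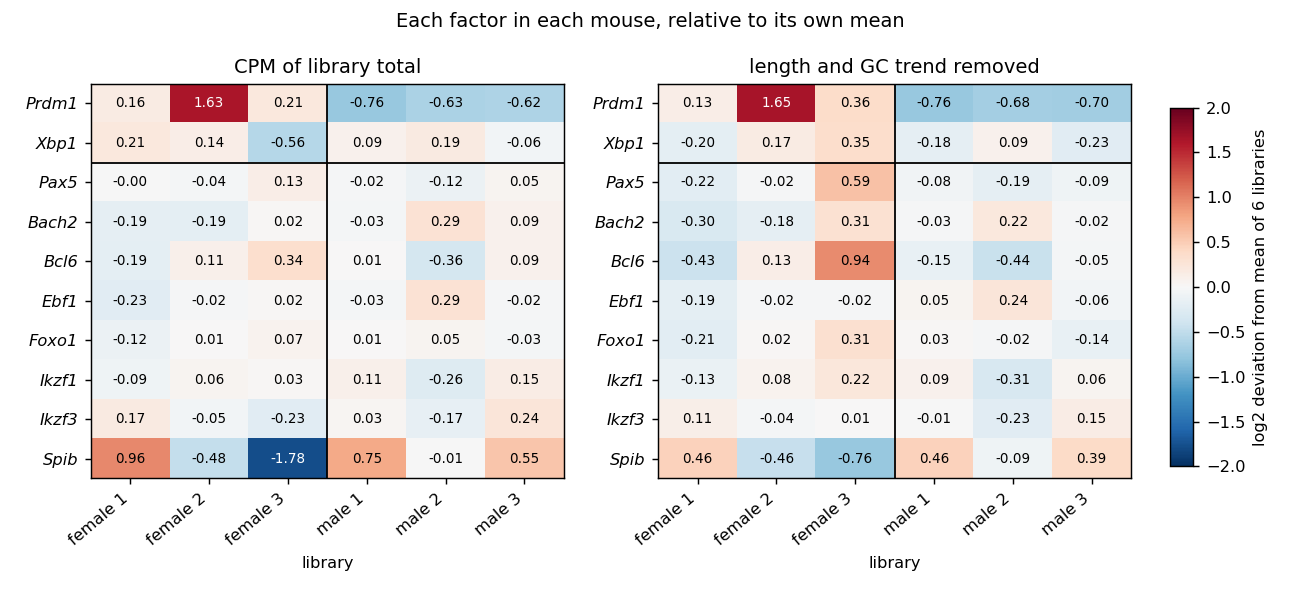
Log2 deviation of each factor in each library from its own mean over the 6 libraries, from CPM of the library total (left) and after removal of the trend with length and GC content (right); red is above and blue below the mean, females stand left of males, and the upper 2 rows are the plasma cell factors. Prdm1 in female replicate 2 has 1.63 on the left and 1.65 on the right, and Spib in female replicate 3 has -1.78 on the left and -0.76 on the right.

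Surface genes of the B cell receptor and of an inhibitory receptor that acts on it had a pattern like that of Spib. They were picked after their values were seen, and the pattern was not particular to them. Among 6871 named genes ordered by Pearson r of log2 CPM with Spib, Cd79b was at rank 94, Cd79a at 111 and Cd22 at 150. The genes most like Spib were Ptpn7, Ddit4, Traip, Ticrr and Kif21b. Cd79b, a signalling chain of the receptor, had 51.9, 22.3 and 5.20 CPM in female replicates 1 to 3, against 47.8, 31.8 and 43.4 CPM in male replicates 1 to 3. Cd79a, the other chain, had 29.4, 13.3 and 4.61 CPM in females and 22.8, 12.9 and 18.8 CPM in males, and Cd22, the inhibitory receptor, had 41.0, 19.99 and 10.4 CPM in females and 42.3, 20.3 and 36.4 CPM in males. These 3 genes were lowest in female replicate 3, as was Spib. With the same trend removed, their deviations in that library were -1.31 for Cd79b, -0.56 for Cd79a and -0.54 for Cd22, against -2.38, -1.67 and -1.28 before. Ms4a1 (CD20), a surface gene of the same marker list, did not have this pattern, with 1424, 1470 and 1658 CPM in female replicates 1 to 3, against 1630, 1479 and 1632 CPM in male replicates 1 to 3, and its highest value in female replicate 3.

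**Figure D5:**
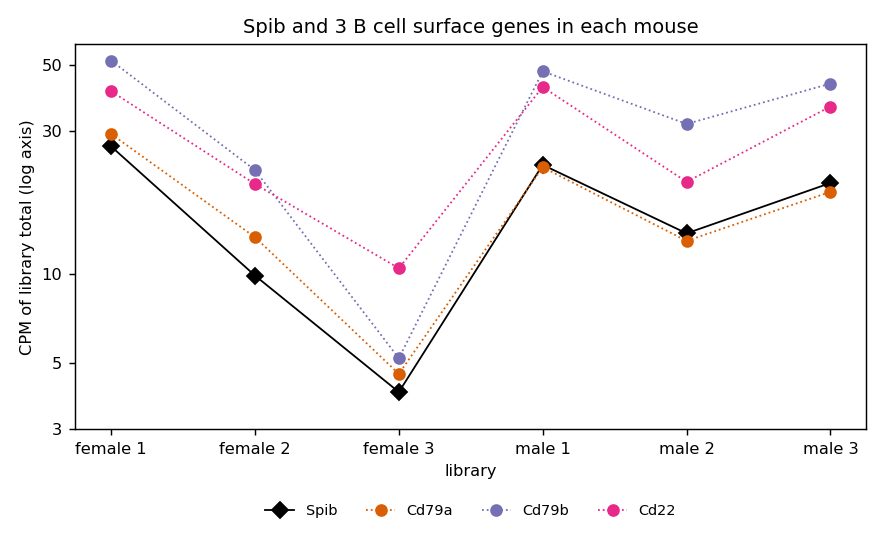
CPM of Spib and of Cd79a, Cd79b and Cd22 in each library on a log axis, with females left of males; lines join the values of 1 gene to guide the eye and carry no order between mice. All 4 genes are lowest in female replicate 3, where they lie between 4.00 and 10.4 CPM.

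The genes most like Prdm1 over the 6 libraries, by Pearson r of log2 CPM among 6871 named genes whose mean reached 5 CPM, were Fam46c (0.98), Rab18 (0.97), Calu (0.96), Slc16a10 (0.96) and Rasgrp3 (0.96). Fam46c, a poly(A) polymerase gene active in plasma cells, had 76.2, 151 and 67.8 CPM in female replicates 1 to 3 and 48.3, 39.8 and 40.3 CPM in male replicates 1 to 3, and was highest in female replicate 2, as was Prdm1. Xbp1 was at rank 2577 in that order. The genes most like Pax5 were Ak3 (0.99), Dleu2 (0.99), Bcl11a (0.98), Rad21 (0.98) and Zfp125 (0.98), and Bcl6 was at rank 208 with an r of 0.85. These r values describe 6 points each, which share the library total.

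Of 15 further plasma cell genes, 12 were tested, none passed in edgeR, 8 had a positive log2 fold change, and their median was 0.14 against 0.00 over all tested genes. Igj, the joining chain of secreted antibody, had 37.7, 48.4 and 48.2 CPM in female replicates 1 to 3, against 17.1, 17.0 and 18.3 CPM in male replicates 1 to 3. All females lay above all males, and the log2 fold change was 1.51 ± 0.22 (SE; adjusted p = 0.169, edgeR). DESeq2 called Igj at an adjusted p of 9.97e-07 and Fam46c at 0.0108, where it called 0.288% of all genes. At an unadjusted p under 0.05 in edgeR there were 4 of the 12, Igj, Fam46c, Ell2 and Irf4, where 2.89% of all genes had such a p. Limma-voom called these 4 with sample quality weights, where it called 1.88% of all genes, and 0 without. These shares also stand beside the counts of the lists below. Ell2, an elongation factor for secreted antibody transcripts, did not overlap either, with 139, 230 and 222 CPM in females and 99.7, 122 and 120 CPM in males. Slamf7 and Eaf2 were lower in every female library than in every male library on the CPM scale. Their log2 fold changes were -0.40 and -0.16 (unadjusted p = 0.0762 and 0.433, edgeR). Of the 12, 3 thus had every female above every male, beside 2.69% of all genes, and 2 had every female below, beside 7.55%. Irf4, which activates Prdm1, had 144, 225 and 123 CPM in females and 111, 139 and 109 CPM in males, highest in female replicate 2. Sdc1, the surface mark of plasma cells, had 3.22, 1.59 and 1.80 CPM in females and 2.02, 2.17 and 2.92 CPM in males, and Tnfrsf17, the receptor BCMA, was listed at 0 in all 6 libraries.

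Of 12 secretory genes that Xbp1 is known to drive, none passed in edgeR, 6 had a positive and 6 a negative log2 fold change, and their median was 0.01. None had an unadjusted p under 0.05 in edgeR, DESeq2 and limma-voom called 0, and limma-voom with sample quality weights called Sec24d, a vesicle coat gene with at most 1.04 CPM in any library. Dnajb9, a chaperone partner, had 99.0, 131 and 151 CPM in female replicates 1 to 3 and 102, 101 and 103 CPM in male replicates 1 to 3, with a log2 fold change of 0.49. Pdia4, a disulphide isomerase, had a log2 fold change of 0.19. Edem1, which sends misfolded proteins to degradation, was lower in all females on the CPM scale, at 193, 188 and 176 CPM against 200, 199 and 200 CPM in males, but its log2 fold change with TMM scaling was 0.04.

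Among 7 genes that Pax5 is known to activate, none passed in edgeR, 5 had a value below 0, and the median log2 fold change was -0.16. Fcer2a, the IgE receptor CD23, had 2.42, 1.49 and 0.808 CPM in female replicates 1 to 3 and 3.75, 8.32 and 3.59 CPM in male replicates 1 to 3. All females lay below all males, with a log2 fold change of -1.65 ± 0.48 (SE; adjusted p = 0.999, edgeR). Cr2, a complement receptor, ran the other way, with 209, 200 and 179 CPM in females and 170, 177 and 162 CPM in males and a log2 fold change of 0.35. These 2 of 7 had an unadjusted p under 0.05 in edgeR, beside 2.89% of all genes, and DESeq2 and limma-voom, with or without sample weights, called 0 of the 7. Of 4 genes that Blimp-1 is known to repress, none passed in edgeR, 3 had a positive log2 fold change, and the median was 0.04, with 0 at an unadjusted p under 0.05 and 0 called by DESeq2 or either form of limma-voom. Ciita, the activator of MHC class II genes, had a log2 fold change of 0.29, and Myc, a growth regulator, had -0.17.

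Of 9 other B cell regulators, none passed in edgeR, 6 had a positive log2 fold change and the median was 0.20. Tcf4 (E2-2) and Ets1 had the smallest p, with log2 fold changes of 0.46 and 0.28, and their sexes overlapped. Tcf4 was the 1 with an unadjusted p under 0.05 in edgeR, and DESeq2 and both forms of limma-voom called 0. Of 8 known Foxo1 targets, 7 were tested, none passed in edgeR, 5 had a log2 fold change below 0, and the median was -0.16. At an unadjusted p under 0.05 in edgeR there was 1 of the 7, limma-voom with sample quality weights called 1, and DESeq2 and limma-voom without the weights called 0. S1pr1, a receptor for exit from lymphoid organs, had a log2 fold change of 0.43, and Rag1, a recombinase of B cell precursors, was at 0 in all 6 libraries. Of 14 paralogues of the members, 8 were tested, none passed in edgeR, 4 had a positive log2 fold change, and the median was -0.07. Spic, a relative of Spib that red pulp macrophages also express, had 1.34, 2.16 and 0.929 CPM in females, against 0.307, 0.343 and 0.400 CPM in males, with a log2 fold change of 2.19 and a DESeq2 adjusted p of 0.0459. It was the 1 paralogue with an unadjusted p under 0.05 in edgeR, and limma-voom called it with sample quality weights and not without. Bcl6b had a log2 fold change of -0.46, and Ebf3 and Ebf4 were listed at 0 in all 6 libraries.

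Markers of other cells were low but not equal between the sexes. The 5 B cell markers summed to 1537 to 1682 CPM in females and 1558 to 1767 CPM in males, most of it Ms4a1 (CD20). The 8 myeloid markers summed to 48.5 to 148 CPM in females and 43.6 to 102 CPM in males. Most of it was Mpeg1, which activated B cells also express. All 5 that were tested had a positive log2 fold change, but Itgam (0.92), Mpeg1 (0.53) and Cd68 (0.06) overlapped between the sexes. The means of Cd68 were 0.604 CPM in females and 0.606 CPM in males. Lyz2, a macrophage lysozyme, had 2.39, 3.32 and 2.20 CPM in females and 0.282, 0.290 and 0.390 CPM in males, and Emr1 (F4/80) had 1.61, 3.25 and 1.36 CPM in females and 0.888, 0.374 and 0.630 CPM in males, without overlap. Of all genes, 2.69% had every female library above every male library on the CPM scale. The log2 fold change of Lyz2 was 3.15 (adjusted p = 0.0837, edgeR). DESeq2 called it at an adjusted p of 6.36e-08, where it called 0.288% of all genes. Limma-voom with sample quality weights called Lyz2, Emr1 and Mpeg1, beside 1.88% of all genes. At an unadjusted p under 0.05 in edgeR there were 2 of the 5, Lyz2 and Emr1, beside 2.89% of all genes. Both were highest in female replicate 2, the library with the highest Prdm1, and macrophages can express Prdm1. Csf1r, C1qa and C1qb were at or below 0.137 CPM in every library. The 9 T and NK cell markers summed to 6.95 to 12.7 CPM in females and 5.73 to 8.71 CPM in males, with Thy1 and Ncr1 at 0 throughout, Cd3e at no more than 0.0339 CPM and Cd3d above all males in every female. Of the 4 that were tested, 2 had a positive log2 fold change and 2 a negative one, Cd8a (-0.72) and Lck (-0.17). Neutrophil markers reached at most 0.371 CPM in females and 0.0900 CPM in males, erythroid markers 2.34 CPM in females and 0.422 CPM in males, and dendritic cell markers 4.78 CPM in females and 4.68 CPM in males. The part of these cells in the Prdm1 values was not tested.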

How the data were processed

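The 3 female and 3 male mice gave 1 RNA library each, in 1 deposited table of estimated counts per gene symbol, not scaled between libraries. Per the submitters' processing notes, kallisto, DESeq2 and GRCm38.p6 were used, and the sources used here give no versions or settings. For the tests, the deposited estimated counts were rounded to whole numbers. Females were compared with males in edgeR 4.0.16 (R 4.3.3) with filterByExpr (minimum count 10), TMM factors and the quasi-likelihood test with sex as the only term, over 12172 genes, with Benjamini-Hochberg adjustment at 0.05. The biological coefficient of variation was 0.351. The same fit was also run on simulated counts, and the outcome is not reported here. Standard errors are the log2 fold change over the root of F.

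The members and lists were chosen with earlier results of these data known. The rule named all 10 members; of each list, the called genes, or otherwise the 2 with the smallest edgeR p; and the 5 genes most like Prdm1 and Pax5. Other genes were named after their values were seen. Among them were those that did not overlap between the sexes, Irf4, Sdc1, the genes most like Spib and the surface genes beside it. Of the genes so named, 2 are not reported here. Alternatives were DESeq2 1.42.0, limma 3.58.1 (voom, with and without sample weights), RLE factors, library totals only, no filter, a minimum of 1 CPM in 3 libraries, a block for the replicate number, removal of a per-library trend in transcript length and GC content (natural splines of 4 degrees of freedom, 98.8% of tested genes) and each library left out. Ratios and correlations were tested by exact permutation in scipy 1.17.1. Symbols were matched to GENCODE M21 for lengths, coordinates and GC content (40160 of 41669), and promoter windows are from RefSeq, where Ikzf3 had no entry. Figures were drawn with matplotlib 3.10.9.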

Additional observations from a re-analysis of the deposited data

How the results depend on the processing

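Over 15 other settings, Prdm1 had a positive log2 fold change, from 1.05 to 2.18, and it was called in 2 of them, DESeq2 and limma-voom with sample quality weights. Pax5 (0.02 to 0.31) and Bcl6 (0.07 to 0.54) stayed positive and Spib (-1.29 to -0.07) negative in all of them, and no identity factor was called in any. The other values lay near 0 and turned in sign. Xbp1 was 0.0153 with DESeq2, 0.0152 with RLE factors, 0.18 with sample quality weights, 0.22 with the length and GC trend removed and -0.0722 to 0.112 with a library left out. Ebf1 was 0.0177 with DESeq2 and with RLE factors, 0.0363 with sample quality weights and -0.18 to 0.14 with a library left out. With library totals only, Foxo1 was -0.0193, Ikzf1 -0.0092 and Ikzf3 -0.0748, where the median over all genes was -0.12, and Ikzf3 was -0.10 with sample quality weights. With a library left out Bach2 ran from -0.29 to 0.0368, Foxo1 from -0.0398 to 0.26 and Ikzf3 from -0.0423 to 0.17. The cause was not tested.

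The main 7 calls over all genes became 35 with DESeq2, 229 with sample quality weights, 11 with no filter, 11 with the length and GC trend removed and 4 to 12 with a library left out. The plasma minus identity difference of 0.73 was 1.47 with Prdm1 alone and -0.00768 with Xbp1 alone. With the replicate number as a block 7 genes were called. The replicate block left the mean Prdm1 to Pax5 difference at 1.28, with an exact sign permutation p of 0.25, the smallest that 3 pairs allow. Same-numbered samples correlated at 0.222, 0.0423 and 0.0695, and differently numbered ones at -0.207 to 0.120. So few samples cannot settle whether the numbers pair the mice. With 3 mice a sex, the 95% intervals give the precision of each value.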
